A study of Mus musculus with 8 samples.

Results

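Il10, an immunosuppressive cytokine of regulatory T (Treg) cells, and 8 transcription factors known from effector Treg differentiation or from control of Il10, in either direction, were followed in sorted Treg cells labelled Bcl11b-deficient or Bcl11b-sufficient. The 9 genes are Il10, Prdm1, Maf, Batf, Irf4, Rora, Ahr, Bhlhe40 and Stat3, chosen by name for these roles, with earlier results of these data known, and found as rows of a table of 23997 genes. Their counts beside the shares of all genes are therefore descriptions and not independent evidence. The lists of partner, receptor and program genes below were also chosen with those results known, and the same limit holds for them. Values are FPKM (fragment counts scaled to gene length and sequencing depth), which allow levels of genes of different length to be set side by side. All 9 genes passed the filter of a mean of at least 1 FPKM, as 10614 genes of the table did.

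C57BL/6 mice gave the cells, CD4+YFP+ by sorting, with draining lymph nodes and spleen as the source. Bcl11b-deficient cells had the genotype Bcl11b f/f Foxp3-YFP-Cre/+, with both alleles of the T cell transcription factor gene Bcl11b floxed. Bcl11b-sufficient cells had the genotype Bcl11b f/+ Foxp3-YFP-Cre/+, so they carry the same Cre and 1 floxed copy. In both groups Cre is expressed from Foxp3, the gene of the transcription factor that defines Treg cells. Foxp3 is X-linked, and in a heterozygous female the sort takes cells that use the YFP-Cre allele, while the animal also has Treg cells that use the other allele. Age, sex and the number of animals are not given in the labels. The comparison is between Treg cells with both copies and Treg cells with 1 copy of Bcl11b open to deletion by Cre.

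IL-10 is secreted by effector Treg cells, the activated part of the lineage that leaves the resting state, enters tissues and restrains inflammation at barrier surfaces. BATF and IRF4 bind DNA together after T cell receptor stimulation and open the effector program, and Blimp-1, the product of Prdm1, acts downstream of IRF4 in the Treg cells that make IL-10. c-MAF binds the Il10 locus directly, STAT3 carries signals of IL-6, IL-21, IL-27 and IL-10 itself, and AHR is a receptor for small aromatic ligands that cooperates with c-MAF. In helper T cells Bhlhe40 represses Il10, and RORA is a nuclear receptor of tissue Treg cells.

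Each group has 4 columns in the table. Some pairs were so alike that each was averaged into 1 library. Deficient replicates 1 with 3 and 2 with 4, and sufficient replicates 1 with 3, had spreads of 1.09 to 1.25 times read sampling noise, against 1.80 to 2.73 times for the 9 other pairs within a group. This leaves 2 deficient and 3 sufficient libraries, and no label ties them to separate animals, so the p-values rest on a spread between libraries that may be technical. The depth estimated from the steps between low values ran from 3050000 to 11800000 fragments per deficient column and from 2860000 to 12500000 per sufficient column. Bcl11b, the targeted gene, measured 24.2, 19.3, 24.6 and 18.7 FPKM in deficient columns 1 to 4, against 42.4, 46.5, 42.4 and 39.1 FPKM in sufficient columns 1 to 4, with no overlap. It averaged 21.7 ± 3.83 FPKM in deficient libraries, against 42.7 ± 3.68 FPKM in sufficient ones (SD, n = 2 and 3), a log2 fold change of -0.95 (SE 0.14, limma adjusted p = 0.0238). The deficient level is 50.8% of the sufficient one, and gene totals hold no exon detail, so loss of Bcl11b from the cells was not verified. Foxp3 measured 153 and 153 FPKM in deficient libraries, against 198, 198 and 165 FPKM in sufficient ones.

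Il10 fell in deficient cells to about 10.1% of the sufficient level, while none of the 8 factors passed the test over all genes. Of the 9 genes, 0 were called higher and 1 lower (limma, Benjamini-Hochberg adjusted p under 0.05). Of all tested genes 2.63% were called, 1.93% higher and 0.697% lower. At an unadjusted p under 0.05, 5 of the 9 genes were lower, against 8.45% of all tested genes. The factors with the lowest adjusted p were Irf4, Maf, Batf and Bhlhe40, at 0.154 to 0.251 in limma. Stat3 and Ahr measured close to the same level in both groups. The fold change was negative for 8 of the 9 genes, against 52.1% of all tested genes, and its median over the 8 factors was -0.40, against -0.01 over all tested genes. With library totals made equal, which moves the median of all genes to 0.18, Ahr turns to 0.02 and the other 7 genes stay negative.

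**Figure D1:**
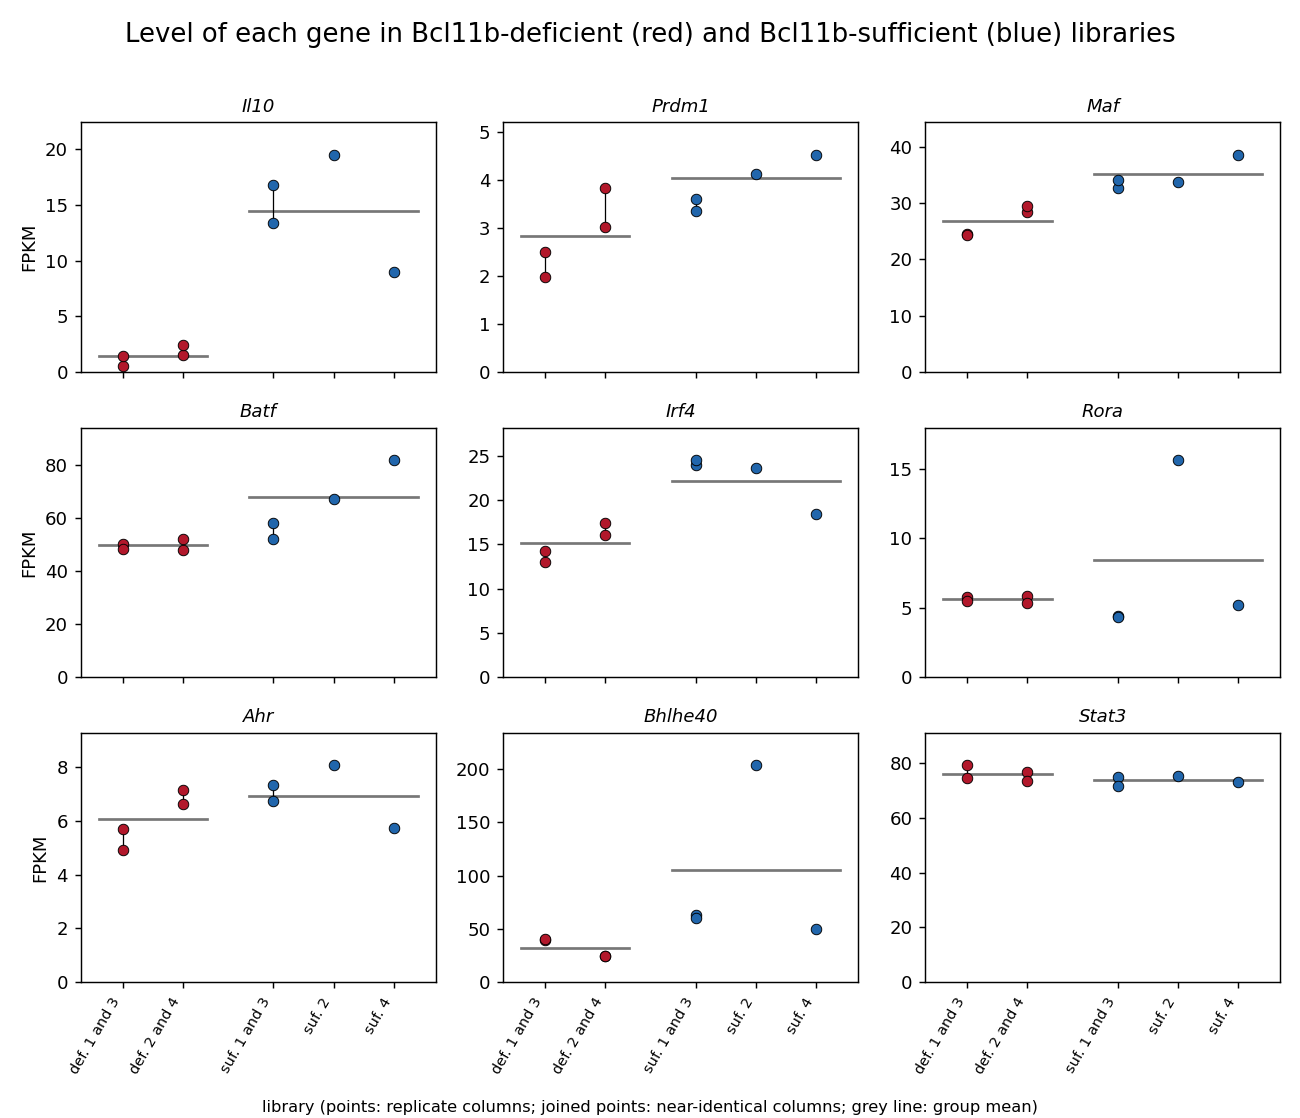
Level in FPKM (y axis, from 0) of the 9 genes in the 2 deficient libraries (red, left) and the 3 sufficient libraries (blue, right). Each point is a replicate column, joined points are near-identical columns averaged into 1 library, and the grey line is the group mean over libraries. Il10 lies between 0.563 and 2.38 FPKM in deficient columns and between 8.98 and 19.5 FPKM in sufficient columns, and sufficient replicate 2 stands apart in Bhlhe40 and Rora.

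Il10 (ENSMUSG00000016529.5, chromosome 1, 131019845 to 131024974, plus strand in the GRCm38 annotation) is the only cytokine of the set. It measured 0.563, 1.48, 1.47 and 2.38 FPKM in deficient columns 1 to 4, against 16.8, 19.5, 13.4 and 8.98 FPKM in sufficient columns 1 to 4. Every deficient column lies below every sufficient column. As the gene has 1 annotated transcript, its fragments could be estimated, at about 22 and 32 in the 2 deficient libraries and about 243, 134 and 129 in the 3 sufficient libraries. The value of deficient replicate 1 rests on about 2.0 fragments and that of its deeper partner, replicate 3, on about 20.0.

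The group means of Il10 were 1.47 ± 0.645 FPKM in deficient libraries, against 14.5 ± 5.29 FPKM in sufficient ones (SD, n = 2 and 3), a 9.87-fold higher mean in sufficient libraries. The log2 fold change was -2.62 (SE 0.31, 95% interval -3.35 to -1.88, limma adjusted p = 0.0130), computed on log2(FPKM + 1), where the change of a low gene comes out too small. It was the fifth most negative value among all tested genes. By a two-sided exact permutation of the libraries p was 0.1, and 2 against 3 libraries can give nothing smaller. The call ended when the deficient library of replicates 1 and 3 was left out (log2 fold change -2.35, limma adjusted p = 0.118), when that of replicates 2 and 4 was (-2.88, 0.0797) and with no filter on low values (-2.62, 0.0710). In RNA from a bulk sort, fewer cells that express a gene and less of its RNA per cell cannot be told apart.

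Some markers of other cells moved in the same libraries as Il10. Of 14 tested macrophage markers 8 were higher and 0 lower, and the summed level of the 15 listed in the table was 343 to 719 FPKM in deficient and 20.2 to 84.0 FPKM in sufficient libraries, with no marker at 0 throughout either group. NK markers summed to 109 to 118 FPKM in deficient and 12.0 to 30.9 FPKM in sufficient libraries, with 3 of 7 tested higher. Those 3 were Klrd1, Gzma and Tyrobp. Tyrobp was the largest part of the deficient sums, at 64.9 FPKM in the library of replicates 1 and 3 and 38.6 FPKM in that of replicates 2 and 4. It was thus lower in the library of replicates 2 and 4, as all macrophage markers but Itgam were. Klrd1 (12.0 and 19.6 FPKM) and Gzma (12.6 and 31.5 FPKM) were higher there. The NK sum is therefore not a measure of NK cells alone. Klrb1c and Nkg7 lay higher in deficient libraries but were not called, and Ncr1, Prf1 and Eomes overlapped between the groups. The part of macrophages and NK cells in the lower Il10 value was not tested. Of 7 tested Treg and T cell markers 6 lay lower and 1 higher in deficient libraries, none overlapping, and 1, Ctla4, was called. Of all tested genes 17.9% lay lower and 18.9% higher without overlap. Cd3e, a subunit of the T cell receptor complex, was at 256 and 249.5 FPKM in deficient libraries, against 277, 259 and 298 FPKM in sufficient ones. Cd4 was at 289 and 295 FPKM in deficient libraries, against 251, 251 and 278 FPKM in sufficient ones. Cd5, an inhibitory receptor of T cells, was at 287 and 271 FPKM in deficient libraries, against 339, 362 and 385 FPKM in sufficient ones, and the deficient level of Ikzf2, a Treg transcription factor gene, was 66.6% of the sufficient level.

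Bhlhe40 (ENSMUSG00000030103.11, chromosome 6), a basic helix-loop-helix repressor, had the lowest share of its sufficient level after Il10. It measured 39.9, 24.7, 40.8 and 24.7 FPKM in deficient columns 1 to 4, against 62.8, 203, 60.4 and 50.1 FPKM in sufficient columns 1 to 4. The groups do not overlap, but sufficient replicate 2 is more than 3 times as high as the other sufficient libraries. The means were 32.5 ± 11.0 FPKM in deficient libraries, against 105 ± 85.1 FPKM in sufficient ones (SD, n = 2 and 3). The log2 fold change of -1.41 (SE 0.56, 95% interval -2.72 to -0.10) did not pass (limma adjusted p = 0.251). Without sufficient replicate 2 it was -0.79 (limma adjusted p = 0.164). The gene overlaps the exons of 0610040F04Rik on the opposite strand, which was listed at or near 0 in the table, at up to 0.106 FPKM.

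Irf4 (ENSMUSG00000021356.10, chromosome 13), an interferon regulatory factor that lymphocytes express in proportion to receptor signal, measured 13.0, 17.4, 14.2 and 16.0 FPKM in deficient columns 1 to 4, against 24.0, 23.6, 24.5 and 18.4 FPKM in sufficient columns 1 to 4. The groups do not overlap, with sufficient replicate 4 the closest to the deficient columns. The means were 15.1 ± 2.21 FPKM in deficient libraries, against 22.1 ± 3.21 FPKM in sufficient ones, a log2 fold change of -0.51 (SE 0.16, 95% interval -0.88 to -0.15, limma adjusted p = 0.154).

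Batf (ENSMUSG00000034266.6, chromosome 12), the AP-1 family partner of IRF4, measured 50.3, 48.0, 48.3 and 52.0 FPKM in deficient columns 1 to 4, against 57.9, 67.1, 51.9 and 81.7 FPKM in sufficient columns 1 to 4. The deficient columns lie within a narrow band, and sufficient replicate 3 falls inside it. The averaged libraries do not overlap. The means were 49.7 ± 0.483 FPKM in deficient libraries, against 67.9 ± 13.4 FPKM in sufficient ones, a log2 fold change of -0.43 (SE 0.16, 95% interval -0.81 to -0.04, limma adjusted p = 0.246).

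Maf (ENSMUSG00000055435.6, chromosome 8), which encodes c-MAF, measured 24.6, 28.5, 24.4 and 29.5 FPKM in deficient columns 1 to 4, against 32.8, 33.7, 34.2 and 38.6 FPKM in sufficient columns 1 to 4. Every deficient column lies below every sufficient column, by a small margin. The means were 26.8 ± 3.23 FPKM in deficient libraries, against 35.2 ± 2.88 FPKM in sufficient ones, a log2 fold change of -0.39 (SE 0.12, 95% interval -0.67 to -0.10, limma adjusted p = 0.167).

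Prdm1 (ENSMUSG00000038151.13, chromosome 10), whose product Blimp-1 is a zinc finger repressor of effector lymphocytes, was the lowest of the factors. It measured 2.49, 3.84, 1.98 and 3.01 FPKM in deficient columns 1 to 4, against 3.36, 4.12, 3.61 and 4.52 FPKM in sufficient columns 1 to 4. Deficient replicate 2 lies among the sufficient columns, and the averaged libraries do not overlap, at 2.23 and 3.43 FPKM in deficient libraries, against 3.49, 4.12 and 4.52 FPKM in sufficient ones. Its log2 fold change was -0.41 (SE 0.19, 95% interval -0.86 to 0.04, limma adjusted p = 0.328).

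Il10, Bhlhe40, Irf4, Batf, Maf and Prdm1 are thus the 6 genes of the set whose deficient libraries all lie below their sufficient libraries. The same holds for 17.9% of all tested genes, and the opposite, which none of the 9 showed, for 18.9%. With the 8 columns taken as separate libraries, 4 of the 9 were called lower, namely Il10, Irf4 (limma adjusted p = 0.0108), Maf (limma adjusted p = 0.0171) and Bhlhe40 (limma adjusted p = 0.0479), where 7.98% of all genes were called lower. That count takes near-identical columns as independent.

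The promoters of these factors are shown because BATF, IRF4, AHR and STAT3 are known to bind genes of the same set. RefSeq promoter sequence of GRCm38.p6, from 250 bases before to 50 bases after a start site, was at hand for 5 of the 9 genes, namely Prdm1, Batf, Irf4, Rora and Stat3. The 8 motifs were searched on both strands: TGANTCA (AP-1), GAAA, 2 free bases and GAAA (IRF), AGNGAAAG (PRDM1), TGCTGA (MAF core), AGGTCA (RORA core), GCGTG (AHR core), CACGTG (E-box) and TTCNNNGAA (STAT). The Prdm1 window, which belongs to a start site inside the annotated gene, held an AP-1 match at position -48 and AHR core matches at -109 and -77, counted from a start site at 1. The Irf4 window held an AHR core match at -80. Capitals mark these matches, which do not overlap each other.
Prdm1 promoter, chr10:44458699-44458998, minus strand: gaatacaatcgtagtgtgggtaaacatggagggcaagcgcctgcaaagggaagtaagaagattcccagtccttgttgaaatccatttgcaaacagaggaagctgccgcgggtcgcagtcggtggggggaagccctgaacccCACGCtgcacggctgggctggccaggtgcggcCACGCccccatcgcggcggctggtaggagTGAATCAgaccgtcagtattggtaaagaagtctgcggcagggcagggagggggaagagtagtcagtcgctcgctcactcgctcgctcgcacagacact
Irf4 promoter, chr13:30748983-30749282, plus strand: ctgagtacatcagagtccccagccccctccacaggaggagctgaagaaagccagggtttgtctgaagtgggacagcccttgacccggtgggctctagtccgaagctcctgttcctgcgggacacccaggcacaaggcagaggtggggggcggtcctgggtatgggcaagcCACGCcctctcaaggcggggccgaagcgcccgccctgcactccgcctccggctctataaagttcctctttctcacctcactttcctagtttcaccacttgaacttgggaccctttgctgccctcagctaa

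An AP-1 match occurs in 7.81% and an AHR core match in 32.4% of 32851 such promoters. The AHR core was found in 4 of the 5 windows, in all but that of Batf, and the MAF core in 1, that of Stat3, against 19.5% of all promoters. The Batf window held none of the 8 motifs. The IRF, PRDM1, RORA, E-box and STAT letters were in none of the 5 windows, against 3.44%, 8.63%, 16.3%, 7.15% and 8.30% of all promoters. A match of letters is a description of the window and not a bound site.

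The other 3 factors overlapped between the groups. Rora, a nuclear receptor gene on chromosome 9, measured 5.79, 5.82, 5.46 and 5.32 FPKM in deficient columns 1 to 4, against 4.37, 15.6, 4.36 and 5.22 FPKM in sufficient columns 1 to 4. Sufficient replicate 2 alone lies above the deficient columns. The log2 fold change was -0.32 (SE 0.44, 95% interval -1.36 to 0.73, limma adjusted p = 0.754), and without sufficient replicate 2 it turned to 0.19 (limma adjusted p = 0.543).

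Ahr, the aromatic ligand receptor gene on chromosome 12, measured 5.68, 7.12, 4.93 and 6.60 FPKM in deficient columns 1 to 4, against 6.73, 8.05, 7.34 and 5.71 FPKM in sufficient columns 1 to 4. The columns of both groups interleave. Its log2 fold change was -0.16 (SE 0.18, 95% interval -0.57 to 0.25, limma adjusted p = 0.676).

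Stat3, the signal transducer gene on chromosome 11, was the most even of the 9 genes, with 79.0, 76.7, 74.5 and 73.3 FPKM in deficient columns 1 to 4, against 74.7, 75.1, 71.4 and 73.1 FPKM in sufficient columns 1 to 4. It had a log2 fold change of 0.04 (SE 0.09, 95% interval -0.18 to 0.26, limma adjusted p = 0.858). Exons of Stat3 and of Stat5a on the opposite strand share 72 bases, so a few fragments could belong to either gene if strand was not used in counting. Maf, Rora and Ahr also share 440, 82 and 127 exon bases with predicted genes on the opposite strand. The fold changes of the whole set, with Il10 set apart from the rest, are drawn with their intervals.

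**Figure D2:**
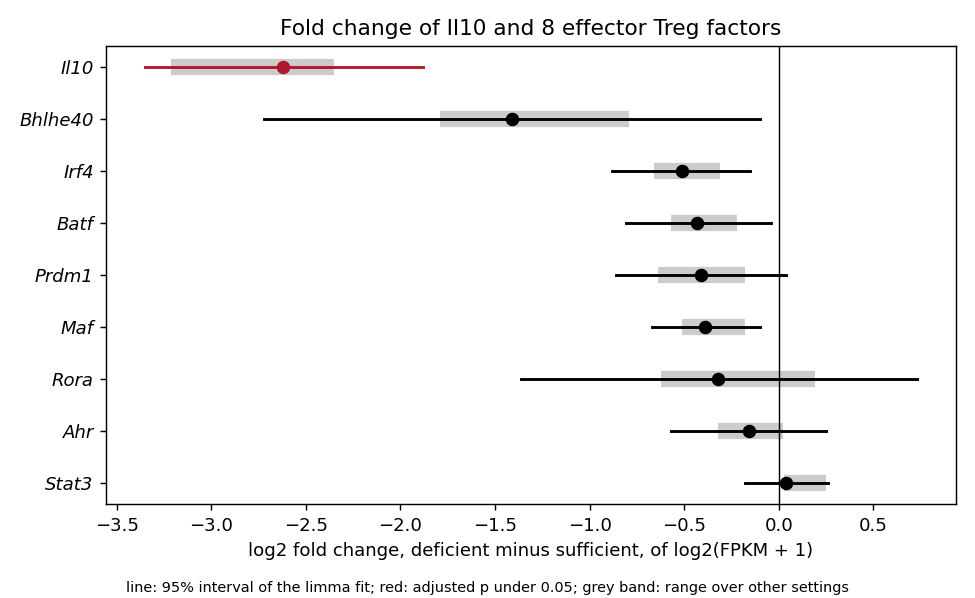
Log2 fold change of log2(FPKM + 1), deficient minus sufficient (x axis), of the 9 genes. Points are limma estimates from 2 deficient and 3 sufficient libraries, lines their 95% intervals, red marks an adjusted p under 0.05 and grey bands give the range over 13 other settings. Il10 alone is red, at -2.62, and the intervals of Prdm1, Rora, Ahr and Stat3 include 0.

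In deficient libraries the order of the levels was Stat3 (75.9 FPKM), Batf (49.7 FPKM), Bhlhe40 (32.5 FPKM), Maf (26.8 FPKM), Irf4 (15.1 FPKM), Ahr (6.08 FPKM), Rora (5.60 FPKM), Prdm1 (2.83 FPKM) and Il10 (1.47 FPKM). The libraries of Bhlhe40 and Maf overlap, as do those of Ahr and Rora, while all other neighbours in this order are separate. In sufficient libraries it was Bhlhe40 (105 FPKM), Stat3 (73.7 FPKM), Batf (67.9 FPKM), Maf (35.2 FPKM), Irf4 (22.1 FPKM), Il10 (14.5 FPKM), Rora (8.39 FPKM), Ahr (6.93 FPKM) and Prdm1 (4.04 FPKM). There Bhlhe40 overlaps Stat3, Stat3 overlaps Batf, and the run from Irf4 through Il10 and Rora to Ahr overlaps at each step. Il10 is the lowest of the 9 genes in deficient libraries and the sixth in sufficient libraries.

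Within a group the libraries did not keep 1 order across the genes. Between the 2 deficient libraries, that of replicates 2 and 4 was 1.90 times that of replicates 1 and 3 for Il10, 1.53 times for Prdm1 and 0.613 times for Bhlhe40, while Batf, Rora and Stat3 lay within 0.977 to 1.01. Among the sufficient libraries, replicate 2 was the highest of all 5 libraries for 4 genes (Il10, Rora, Ahr and Bhlhe40) and replicate 4 for 3 (Prdm1, Maf and Batf). Over all tested genes, sufficient replicate 2 was the highest for 14.2% and sufficient replicate 4 for 27.4%.

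The genes most like Il10 were sought by the root mean square distance between profiles of log2(FPKM + 1) over the 5 libraries, each centred on its own mean. They were Lrrc32 (distance 0.49), the docking receptor of latent TGF-beta, Ctla4 (0.55), an inhibitory receptor, Tnfrsf4 (0.60), a costimulatory receptor, Areg (0.61), the growth factor amphiregulin, and Nfil3 (0.63), a leucine zipper transcription factor. Areg measured 0.472 and 0.101 FPKM in deficient libraries, against 2.72, 10.3 and 1.85 FPKM in sufficient ones, with sufficient replicate 2 the highest, and did not pass (log2 fold change -1.95, limma adjusted p = 0.132). Nfil3 measured 14.0 and 9.49 FPKM in deficient libraries, against 37.5, 54.6 and 21.4 FPKM in sufficient ones, and did not pass either (-1.54, 0.0791). The distance is not scaled to each gene's spread, so genes with a large drop between the groups come out near Il10. Within the deficient group they did not follow it. From the library of replicates 1 and 3 to that of 2 and 4, Il10 went from 1.02 to 1.93 FPKM. Lrrc32 (38.2 to 32.6 FPKM), Ctla4 (119 to 103 FPKM), Tnfrsf4 (60.5 to 59.6 FPKM), Areg and Nfil3 went down. Of the 8 factors Bhlhe40 was the closest to Il10, at a distance of 0.83 and rank 37 among all tested genes, followed by Irf4 at 1.06 and rank 233. Stat3 was the farthest, at 1.35.

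**Figure D3:**
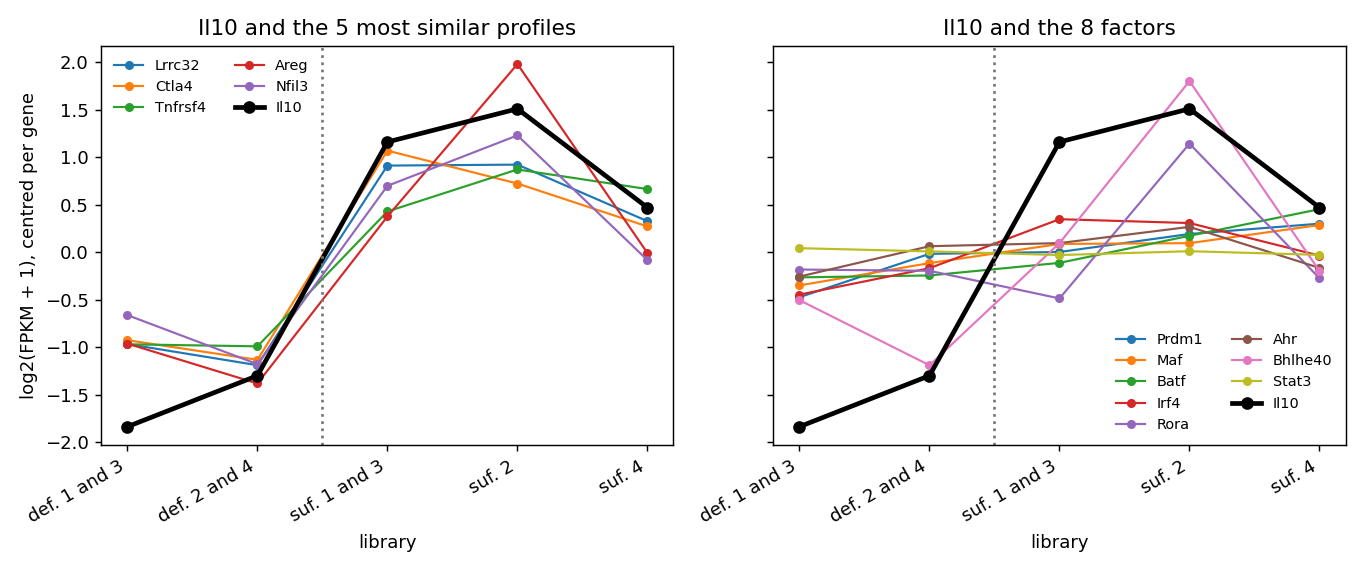
Log2(FPKM + 1) centred on each gene's mean over libraries (y axis) in the 2 deficient libraries (left of the dotted line) and the 3 sufficient libraries (right of it). Il10 (black) is drawn with its 5 nearest genes on the left and with the 8 factors on the right. Lrrc32, Ctla4 and Tnfrsf4 lie at a distance of 0.49 to 0.60 from Il10 and share its drop between the groups, not its rise between the deficient libraries. Most factors stay near 0, and Bhlhe40 and Rora peak in sufficient replicate 2.

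Genes that make cells respond to IL-10 were measured beside it. Of 6 tested genes for the receptor, its kinases, its feedback gene Socs3 and the neighbour Mapkapk2, 0 were higher and 0 lower. Il10ra, the ligand-binding receptor chain, measured 19.8 and 19.7 FPKM in deficient libraries, against 25.0, 25.9 and 30.6 FPKM in sufficient ones (log2 fold change -0.43, limma adjusted p = 0.129). Socs3, an inhibitor of cytokine signalling induced by STAT3, measured 74.7 and 56.1 FPKM in deficient libraries, against 97.6, 85.5 and 90.9 FPKM in sufficient ones (-0.49, limma adjusted p = 0.143). Both genes lay lower in deficient libraries with no overlap between the groups, as did 17.9% of all tested genes. The kinase gene Jak1 had a log2 fold change of 0.17 and Tyk2 of 0.10 (limma adjusted p = 0.516 and 0.681). Mapkapk2, which lies next to Il10 on chromosome 1, was even, at 72.0 and 71.0 FPKM in deficient libraries, against 71.2, 73.4 and 69.3 FPKM in sufficient ones. The cytokine genes Il20 and Il24 were listed at 0 in all 5 libraries, and Il19 and Il22 were below 1 FPKM in each.

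Of 12 receptors that act upstream of the factors, 0 were higher and 0 lower. Il2ra, the high-affinity chain of the IL-2 receptor, measured 103 and 122 FPKM in deficient libraries, against 202, 151 and 185 FPKM in sufficient ones (log2 fold change -0.66, limma adjusted p = 0.0783). Il6ra measured 43.7 and 40.9 FPKM in deficient libraries, against 55.3, 62.7 and 55.2 FPKM in sufficient ones (-0.44, limma adjusted p = 0.0920), and Il21r 94.8 and 90.2 FPKM in deficient libraries, against 112, 131 and 129 FPKM in sufficient ones (-0.41, limma adjusted p = 0.126). Il6st, the signalling chain shared by the IL-6 and IL-27 receptors, ran the other way, at 85.2 and 81.7 FPKM in deficient libraries, against 65.3, 75.2 and 60.8 FPKM in sufficient ones (0.32, limma adjusted p = 0.239). The fold change was negative for 11 of the 12, with a median of -0.27, against 52.1% of all tested genes and a median of -0.01.

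Among 20 tested relatives and partners of the factors 2 were higher and 0 lower, and the median log2 fold change over them was 0.05. Batf3, the relative of Batf that conventional dendritic cells need, rose to 2.67 and 4.96 FPKM in deficient libraries, against 0.307, 0.896 and 0.295 FPKM in sufficient ones (1.66, SE 0.29, limma adjusted p = 0.0366). It rose in the deficient libraries, in which macrophage markers were also high. Between the 2 deficient libraries, Batf3 was higher in that of replicates 2 and 4. All macrophage markers but Itgam were lower in that library, such as Lyz2 at 62.4 FPKM, against 158 FPKM in that of replicates 1 and 3. Batf3 is itself on the list of dendritic cell markers, of which 2 of 4 tested were higher in deficient libraries, Batf3 and Siglech. Bst2 and Zbtb46, the other tested markers, overlapped between the groups. Zbtb46 measured 2.04 and 1.23 FPKM in deficient libraries, against 0.153, 1.39 and 0.639 FPKM in sufficient ones (log2 fold change 0.65, limma adjusted p = 0.37). Siglech, a receptor of plasmacytoid dendritic cells, was at 6.29 and 2.34 FPKM in deficient libraries, against 0, 0.225 and 0.212 FPKM in sufficient ones (log2 fold change 2.11, limma adjusted p = 0.0319). Flt3, Itgax, Xcr1 and Clec9a did not reach the filter, at 1.26 FPKM or less, and each was higher in both deficient libraries than in any sufficient one. All 8 markers summed to 129.8 to 135 FPKM in deficient libraries, against 117 to 132 FPKM in sufficient ones, most of it Bst2. The part of dendritic cells in the value of Batf3 was not tested.

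Other relatives of the factors had values that did not pass. Maff, a small MAF protein gene, measured 9.01 and 1.33 FPKM in deficient libraries, against 18.0, 20.0 and 16.1 FPKM in sufficient ones (log2 fold change -1.98, SE 0.52, limma adjusted p = 0.118). Fosl2, an AP-1 member, measured 5.90 and 2.72 FPKM in deficient libraries, against 8.34, 18.0 and 10.1 FPKM in sufficient ones (-1.30, SE 0.35, limma adjusted p = 0.124). Both lay lower in deficient libraries with no overlap, as did 17.9% of all tested genes. Between the deficient libraries both were lower in that of replicates 2 and 4, as Bhlhe40 was. Junb, the usual dimer partner of BATF, was spread within each group, at 653 and 238 FPKM in deficient libraries, against 1184, 925 and 504 FPKM in sufficient ones.

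Of 16 tested factors of other effector Treg subsets 0 were higher and 0 lower (median -0.13). Beside Nfil3, the lowest adjusted p were those of Hif1a, the hypoxia factor (log2 fold change -0.46, limma adjusted p = 0.153), Ikzf1 (0.36, 0.179) and Bcl6, the factor of follicular T cells that Blimp-1 antagonises (0.34, 0.192). Bcl6 measured 18.4 and 16.6 FPKM in deficient libraries, against 13.4, 14.6 and 12.9 FPKM in sufficient ones. Gata3, the factor of type 2 helper cells and of many tissue Treg cells, had a log2 fold change of -0.32 (limma adjusted p = 0.353), and Tbx21, the factor of type 1 helper cells, of 0.42 (limma adjusted p = 0.599).

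Surface and effector genes of effector Treg cells had a negative fold change in 27 of 30 tested, against 52.1% of all tested genes. The list was chosen with earlier results of these data known, so its shares are descriptions and not independent evidence. Of these 30 tested genes 1 was higher and 6 were lower, against 1.93% and 0.697% of all tested genes. The median log2 fold change was -0.83, against -0.01 over all tested genes. The 6 genes were Tnfrsf4 (log2 fold change -1.64, limma adjusted p = 0.00800), Lrrc32 (-1.80, 0.00982), Ctla4 (-1.72, 0.0174), Tnfrsf9 (-0.82, 0.0178), Nrp1 (-0.85, 0.0319) and Itgae (-1.49, 0.0448). Itgae, the integrin chain of tissue lymphocytes, fell to 4.42 and 8.30 FPKM in deficient libraries, against 15.0, 17.8 and 25.6 FPKM in sufficient libraries. The gene that rose was Lgals3, a galectin also abundant in macrophages, at 14.1 and 19.8 FPKM in deficient libraries, against 4.39, 4.83 and 4.28 FPKM in sufficient ones (1.69, limma adjusted p = 0.00885). Between the deficient libraries Lgals3 was higher in that of replicates 2 and 4, in which all macrophage markers but Itgam were lower. The part of macrophages in its value was not tested. The counts of called program genes were 0 when the deficient library of replicates 2 and 4 was left out and 1 when that of replicates 1 and 3 was. They were 3 when sufficient replicate 2 and 11 when the sufficient library of replicates 1 and 3 was left out.

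The other 23 program genes did not pass, and 3 of them, chosen after their values were seen, show the spread. Ccr8, a chemokine receptor of tissue Treg cells, measured 10.6 and 8.94 FPKM in deficient libraries, against 22.3, 48.0 and 17.0 FPKM in sufficient ones (log2 fold change -1.35, limma adjusted p = 0.135). Ebi3, a subunit of the cytokines IL-27 and IL-35, measured 4.27 and 4.32 FPKM in deficient libraries, against 7.04, 17.7 and 12.9 FPKM in sufficient ones (-1.27, limma adjusted p = 0.0991). Klrg1, a marker of terminally differentiated effector Treg cells, ranged more widely within the sufficient group than between the groups, at 3.71 and 2.69 FPKM in deficient libraries, against 1.01, 22.2 and 8.27 FPKM in sufficient ones. Sufficient replicate 2, the library with the highest Il10, was the highest of all libraries in 12 of the 30 genes, or 40.0%, against 14.2% of all tested genes.

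**Figure D4:**
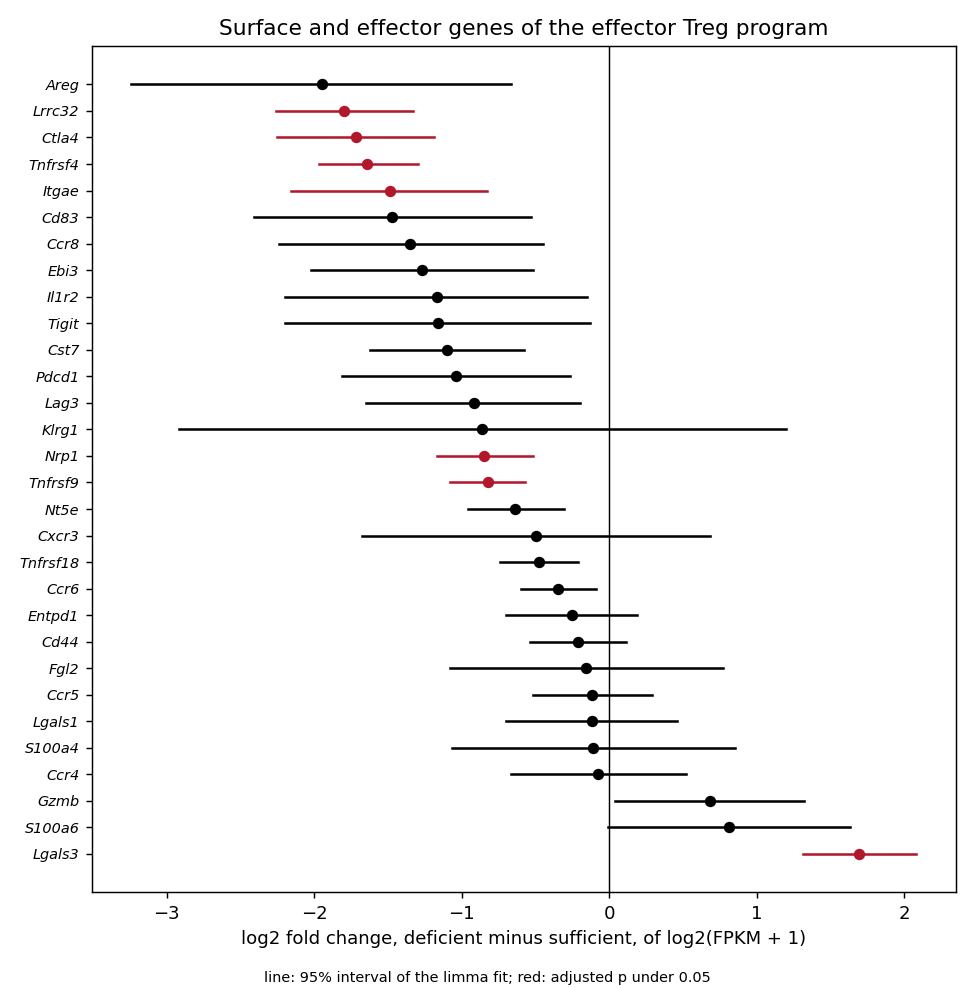
Log2 fold change of log2(FPKM + 1), deficient minus sufficient (x axis), of the 30 tested genes of the effector Treg program. Points are limma estimates, lines their 95% intervals and red marks an adjusted p under 0.05. The 27 genes from Areg (-1.95) to Ccr4 (-0.08) lie left of 0, and Gzmb, S100a6 and Lgals3 (1.69) lie right of it.

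Genes known to be induced through AHR or STAT3 gave few measurable members, as only 4 of 12 passed the filter, and 0 were higher and 0 lower. Tiparp, a feedback gene of AHR, measured 7.15 and 5.93 FPKM in deficient libraries, against 11.1, 11.0 and 9.73 FPKM in sufficient ones (log2 fold change -0.62, SE 0.13, limma adjusted p = 0.0622). Pim1 (-0.28, limma adjusted p = 0.481) and Bcl3 (0.10, limma adjusted p = 0.823) overlapped between the groups. The AHR targets Cyp1a1, Cyp1b1 and Ahrr were below 1 FPKM in every library.

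Factors and homing genes that hold T cells in the resting state gave 0 higher and 1 lower of 12 tested, and their median log2 fold change was -0.03. The gene that fell was Ccr7, the lymph node homing receptor, at 144 and 144 FPKM in deficient libraries, against 218, 315 and 252 FPKM in sufficient ones (-0.84, SE 0.16, limma adjusted p = 0.0464). The call of Ccr7 ended with a pseudocount of 0.1, with no filter, with the replicate block, with depth-weighted averages and without sufficient replicate 2, sufficient replicate 4 or either deficient library. Tcf7, the factor TCF-1 of resting T cells, measured 473 and 437 FPKM in deficient libraries, against 326, 340.3 and 353 FPKM in sufficient ones (0.42, SE 0.11, limma adjusted p = 0.123). Satb1 had a log2 fold change of 0.51 (limma adjusted p = 0.195) and Lef1 of 0.18 (0.456). Bach2, a repressor that opposes IRF4 and BATF at shared sites, measured 29.8 and 24.2 FPKM in deficient libraries, against 27.2, 24.4 and 19.8 FPKM in sufficient ones (0.18, limma adjusted p = 0.611).

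B cells and plasma cells also use Irf4 and Prdm1, so their markers were read in the same libraries. B cell markers summed to 10.4 to 14.3 FPKM in deficient and 11.0 to 23.7 FPKM in sufficient libraries, with 0 of 3 tested higher or lower. Plasma cell markers, a list that includes Irf4, summed to 61.0 to 86.5 FPKM in deficient and 68.8 to 74.4 FPKM in sufficient libraries. Most of each sum was Xbp1, at 41.5 and 46.2 FPKM in deficient libraries, against 47.1, 41.6 and 48.1 FPKM in sufficient ones. Of 4 tested plasma cell markers 1 was higher. That gene was Mzb1, at 2.35 and 2.36 FPKM in deficient libraries, against 0.108, 0 and 0.540 FPKM in sufficient ones. Igj, the joining chain of secreted antibodies, was at 2.13 and 20.3 FPKM in deficient libraries, against 1.76, 2.94 and 4.07 FPKM in sufficient ones. Its high value is in the library of replicates 2 and 4, whereas Mzb1 was even between the deficient libraries. Prdm1 and Irf4 were also higher in that library than in its deficient counterpart (1.53 and 1.23 times). So were Il10 (1.90 times), Ahr (1.29 times) and Maf (1.19 times), while Bhlhe40 was lower (0.613 times). The surface marker Sdc1 was below 1 FPKM in all libraries and Tnfrsf17 was listed at 0 in both deficient libraries. Neutrophil markers summed to 7.17 to 32.4 FPKM in deficient and 3.58 to 38.0 FPKM in sufficient libraries, with 0 of 3 tested called. Treg and T cell markers summed to 1240 to 1248 FPKM in deficient libraries, against 1640 to 1803 FPKM in sufficient ones, with 1 of 7 tested lower. That gene, Ctla4, made the largest part of the difference, at 119 and 103 FPKM in deficient libraries, against 477, 375 and 274 FPKM in sufficient ones. Cd3e was at 91.0% of its sufficient level, Foxp3 at 81.9% and Cd4 at 112%. The part of B cells, plasma cells and neutrophils in the values of Irf4 and Prdm1 was not tested.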

How the data were processed

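Sorted Treg cells were profiled by RNA sequencing with a stranded total RNA kit, per the labels' protocols. Per the submitters' processing notes, the software was STAR 2.5.1, Cuffdiff 2.2.1, Cuffnorm 2.2.1, cutadapt 1.12, Trim Galore 0.4.2 and FastQC, on mm10. Neither settings nor the counting strand are stated there. The deposited values are FPKM made by the authors, as the title of their table and its values show. The table has 16 value columns, of which 8 carry names of the samples; the remaining 8 were not used.

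Depth was estimated from low FPKM values of 3425 genes with 1 annotated transcript over 800 bases (GENCODE M21, GRCm38), which fall on steps of whole fragments after 160 bases are taken off the length; 79.5% to 84.5% of values worth a few fragments lay within 0.15 of a whole number. These depths are approximate. Columns of a group whose log ratios at 150 to 500 fragments spread under 1.5 times sampling noise were averaged.

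Tests covered genes averaging 1 FPKM or more and used log2(FPKM + 1) in limma 3.58.1 (R 4.3.3), trended empirical Bayes, groups as the only term, two-sided, with Benjamini-Hochberg adjustment over all 10614 genes and a threshold of 0.05. The fit was tested on simulated data. Exact permutation tests used scipy 1.17.1. The text names all 9 genes, called genes or up to 4 per list with the lowest adjusted p, the 5 genes nearest to Il10 and Bcl11b; others were named after their values were seen. Alternatives changed the pseudocount, filter, scaling, averaging, replicate block or libraries used. Members and lists were chosen with earlier results of these data known. Same-numbered replicates were not treated as pairs. The values of 1 called gene of the lists are not reported here.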

Additional observations from a re-analysis of the deposited data

How the results depend on the processing

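The count of called genes was 279 (73.5% higher), 182 with a pseudocount of 0.1, 99 with no filter on low values, 1851 with the 8 columns as separate libraries and between 8 and 167 with 1 library left out; with equal totals 91.9% of 371 calls were higher. Members called lower numbered 1, against 0 with no filter, 4 with 8 columns and 0 to 1 with a library left out, and 0 were called higher in each setting. The log2 fold change of Il10 was -2.62 with no filter (limma adjusted p = 0.0710), ran from -2.90 to -2.35 with a library left out (limma adjusted p = 0.0153 to 0.118) and was called in 10 of 13 settings. Among effector program genes 7 were called, against 3 with no filter, 17 with 8 columns and 0 to 11 with a library left out. Among restraining genes 1 was called, against 0 with a pseudocount of 0.1, with no filter, with the replicate block or with averages weighted by depth (an alternative chosen after seeing the data), 3 with 8 columns and 0 to 1 with a library left out. Ahr turned to 0.02 with equal totals, and Rora ran from -0.62 to 0.19 with a library left out; the cause was not tested. The other 6 factors kept their sign in all 13 settings.

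Same-numbered columns of the 2 groups had correlations of 0.03, 0.06, 0.13 and 0.09 in their deviations from the group means. Columns with different numbers had correlations of -0.11 to 0.13. Klf2, Fos, Fosb, Jun and Junb, named after their values were seen, were each higher in columns 1 and 3 of both groups. Klf2 measured 206, 96.2, 194 and 95.2 FPKM in deficient columns 1 to 4, against 272, 128, 264 and 123 FPKM in sufficient ones. Fos measured 684, 436, 676 and 432 FPKM in deficient columns 1 to 4, against 826, 313, 808 and 282 FPKM in sufficient ones. Maff and Jund were higher in columns 1 and 3 of the deficient group only. Whether same-numbered columns shared handling was not tested. With a replicate block of replicates 1 and 3 against 2 and 4, 283 genes were called and Il10 had a log2 fold change of -2.59 (limma adjusted p = 0.0111). Leaving out a library also removes a residual degree of freedom, and where 1 deficient library is left it is assumed to vary like the sufficient ones. Il10 rests on few fragments in deficient libraries, which limits the precision of its fold change.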
